A study of Oncorhynchus gorbuscha with 76 samples.

Results

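The genes cd74b, tap1 and tapbp.1 encode parts of the machinery that displays peptides to T cells, and their transcripts were followed in 3 tissues (muscle, head kidney, gonads) of the pink salmon, Oncorhynchus gorbuscha, sampled at sea, in the river and at spawning. They were taken by symbol from a table of 40756 genes, and all 3 were found there. Pink salmon return from the ocean to fresh water, spawn once and die. Polyadenylated RNA was sequenced in 76 libraries from fish of both sexes that carry no stated experimental treatment: the stage, named ocean, river or spawning, is what separates the groups. The labels number the fish, and the numbers give 28 fish, different ones at each stage, each of which gave more than 1 tissue. Their age, capture site and genetic stock are not given in the labels used here. Each tissue of ocean, river and spawning females gave 4 libraries, except spawning ovary, which gave 5. In males there were 5 testis and 4 head kidney libraries per stage, and 4, 5 and 3 muscle libraries from ocean, river and spawning fish.

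In vertebrates, MHC class I molecules show peptides made inside a cell, and MHC class II molecules show peptides that dendritic cells, macrophages and B cells have taken up. The transporter TAP, built of a TAP1 and a TAP2 chain, pumps peptides from the cytosol into the endoplasmic reticulum, where tapasin, the product of tapbp, ties it to an empty class I molecule and helps a peptide to be loaded. CD74, the invariant chain, fills the groove of new class II molecules and steers them to endosomes. In teleosts the head kidney makes blood and immune cells, as bone marrow does in mammals. The roles given for the genes here are those known in mammals unless another species is named. Class I heavy chains, class II chains and beta-2-microglobulin were not matched by symbol and are not analysed here.

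Summed over genes, the expected counts of a library ran over 15784611 to 29286325 in muscle, 13651505 to 18724203 in head kidney and 12719694 to 17696550 in gonads, and the members had 8 or more expected counts in every library for cd74b, 45 or more for tap1 and 15 or more for tapbp.1. The 5 skeletal muscle markers summed to 2459 CPM in the muscle library labelled river male 6, against 13247 to 18639 CPM in the other 4 river male muscles and 1276 to 2583 CPM in spawning male muscle, so the stage changes of male muscle, its river difference from head kidney and the correlations are given with and without this library. Head kidney libraries fell into 12 with 152 CPM or more over 9 renal tubule markers and 12 with 25.3 CPM or less. The muscle markers summed to at most 101 CPM outside muscle, the leukocyte gene ptprc was at 621 CPM or more in head kidney and 146 CPM or less elsewhere, and 8 testis markers summed to 1407 CPM or more in testis and 393 CPM or less elsewhere. A library is taken as 1 fish from its number; where that does not hold, the p-values measure only the spread between samples, which may be technical. Levels are in CPM (a gene's count relative to the library total, scaled to a common total, after TMM scaling over all 76 libraries), and depend on transcript length, so they are compared between libraries and not between genes.

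All 3 genes stood highest in river head kidney. For cd74b the group means ran from 324 ± 154 (SD, n = 4) CPM in river female head kidney down to 1.26 ± 0.301 (SD, n = 4) CPM in spawning female muscle. The 6 head kidney groups and the river and ocean ovaries held the 8 highest cd74b means, and all their libraries, from 53.9 CPM upwards, lay above every other library, the highest of which was 26.8 CPM in spawning ovary. Spawning ovary came next at 21.8 ± 3.90 (SD, n = 5) CPM, and the 9 muscle and testis groups lay between 1.26 and 9.67 CPM, each overlapping its neighbour in the order.

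For tap1 the means ran from 71.8 ± 6.43 (SD, n = 4) CPM in river male head kidney to 6.85 ± 1.69 (SD, n = 5) CPM in river testis, and every group overlapped the next one in the order. For tapbp.1 they ran from 87.3 ± 18.6 (SD, n = 4) CPM in river male head kidney to 1.48 ± 0.301 (SD, n = 4) CPM in spawning female muscle. Only at 2 places in the tapbp.1 order did neighbouring groups not overlap: between ocean female muscle (7.43 to 15.9 CPM) and spawning testis (4.98 to 7.10 CPM), and between spawning male muscle (2.40 to 5.15 CPM) and spawning female muscle (1.22 to 1.78 CPM).

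**Figure D1:**
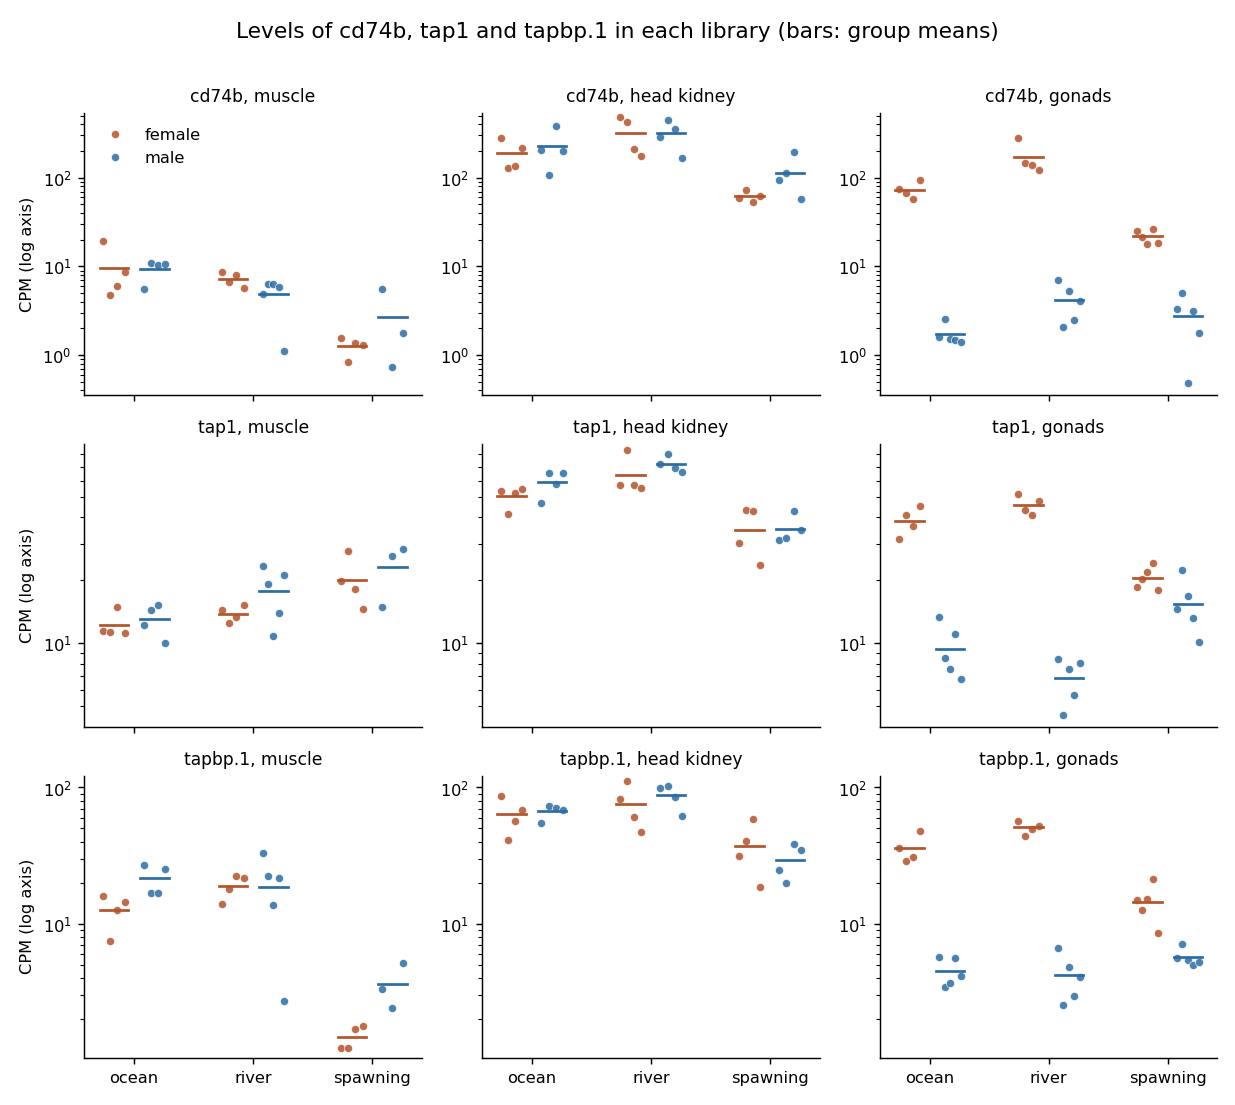
Level of cd74b, tap1 and tapbp.1 (rows, CPM on a log axis) in every library of muscle, head kidney and gonads (columns) at each stage, with females in orange, males in blue and horizontal bars at the group means. cd74b spans the widest range, and tapbp.1 in spawning muscle sits below all ocean muscle libraries while tap1 there does not.

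The head kidney held more of each member than muscle in the ocean, where the log2 differences in females were 3.85 ± 0.39 (adjusted p = 3.60e-10) for cd74b, 1.61 ± 0.19 (adjusted p = 8.85e-09) for tap1 and 1.89 ± 0.31 (adjusted p = 3.24e-06) for tapbp.1 by edgeR's quasi-likelihood test, in a comparison where 64.1% of all genes were called. A call means a Benjamini-Hochberg adjusted p under 0.05 over all genes tested. In ocean males they were 4.58 ± 0.61 (adjusted p = 8.44e-08) for cd74b, 2.16 ± 0.27 (adjusted p = 1.94e-08) for tap1 and 1.63 ± 0.39 (adjusted p = 5.74e-04) for tapbp.1, with 58.6% of genes called. In the river the head kidney of both sexes again held more of all 3, with 62.6% of genes called in females and 60.4% in males. The river male differences were 6.00 for cd74b, 2.01 for tap1 and 2.22 for tapbp.1, and without the muscle of river male 6 they were 5.74 (adjusted p = 5.25e-10), 2.08 (adjusted p = 2.75e-08) and 1.94 (adjusted p = 4.88e-07). At spawning the cd74b and tapbp.1 differences stood at 5.20 and 4.25 in females and 5.40 and 3.01 in males. The tap1 difference at spawning missed the threshold in both sexes, at 0.40 ± 0.18 (adjusted p = 0.0554) in females, where 68.8% of genes were called, and 0.60 ± 0.28 (adjusted p = 0.0621) in males, where 57.6% were. With fish as a replicate block both passed (DESeq2 gave 0.51 (adjusted p = 0.00987) in females), at 0.53 (adjusted p = 0.0144) and 0.83 (adjusted p = 0.0483). The female difference also passed without the ovary of ocean female 4, the head kidney of river female 7, the head kidney of spawning female 1, the muscle of spawning female 3 or the head kidney of spawning female 5, at values of 0.40 to 0.58 and adjusted p of 0.00762 to 0.0481. The male difference did so without the muscle of spawning male 9, at 0.77 (adjusted p = 0.0437). The size of both tap1 differences depends on the TMM scaling. In spawning females tap1 had 397 to 942 expected counts in head kidney and 148 to 361 in muscle. In spawning males it had 606 to 804 and 190 to 318, and library totals were similar in both tissues.

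In the ocean the testis held less of all 3 genes than the head kidney, and the ovary less of cd74b. cd74b in ocean testis lay -7.04 ± 0.62 (SE, adjusted p = 8.60e-12) from male head kidney on the log2 scale, in a comparison with 68% of genes called. The same difference in ocean ovary was -1.24 ± 0.34 (SE, adjusted p = 0.00484), with 36.8% called. For tap1 and tapbp.1 the testis lay -2.64 and -3.89 from head kidney, and the ovary -0.25 (adjusted p = 0.309) and -0.68 (adjusted p = 0.0725). With fish as a replicate block the tapbp.1 difference in ovary passed, at -0.64 (adjusted p = 0.0465). It also passed without the head kidney of ocean female 4 or the ovary of ocean female 7, at values of -0.84 to -0.83 and adjusted p of 0.0368 to 0.0441. At spawning edgeR called all 3 genes lower in ovary than in head kidney, with 45.4% of genes called. The differences were -1.31 (adjusted p = 0.00132) for cd74b, -0.57 (adjusted p = 0.00747) for tap1 and -1.16 (adjusted p = 0.00102) for tapbp.1. The testis was also called lower than male head kidney in all 3 genes after the ocean. In the river the differences were -6.22 for cd74b, -3.39 for tap1 and -4.38 for tapbp.1, with 67.8% of genes called. At spawning they were -5.38, -1.19 and -2.37, with 54.5% called. Ovary and testis were not tested against each other.

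Against female muscle, without pairing by fish, the ovary held more of all 3 members in the ocean and in the river, and more cd74b and tapbp.1 at spawning. The log2 differences of cd74b were 2.61, 4.28 and 3.89 in the ocean, in the river and at spawning, and those of tapbp.1 were 1.22, 1.14 and 3.09, with 62.6%, 61.9% and 71.6% of genes called. For tap1 they were 1.36 and 1.44 before spawning and -0.17 ± 0.17 (SE, adjusted p = 0.376) at spawning, where library size alone gave 1.16 (adjusted p = 1.64e-05). In the river no member's difference between ovary and head kidney passed the threshold, with -0.80 ± 0.34 (SE, adjusted p = 0.0604) for cd74b and 39.8% of genes called, and cd74b passed with fish as a replicate block at -0.77 (adjusted p = 0.0135). It also passed without the muscle of ocean female 2, the muscle of ocean female 4, the ovary of river female 1, the head kidney of river female 8 or the head kidney of river female 9, at values of -1.14 to -0.80 and adjusted p of 0.0129 to 0.0491.

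In males, after TMM scaling, cd74b and tapbp.1 were lower in testis than in muscle in the ocean, and neither difference was called at spawning. By edgeR cd74b in testis minus muscle was -2.46 (adjusted p = 1.40e-04) in the ocean, -0.22 (adjusted p = 0.701) in the river and 0.019 at spawning. tapbp.1 in testis minus muscle was -2.27 ± 0.37 (SE, adjusted p = 2.37e-06) in the ocean and 0.64 ± 0.42 (SE, adjusted p = 0.188) at spawning, with 67.8% and 59.6% of genes called. In ocean testes cd74b had 27 to 45 expected counts and tapbp.1 60 to 101, of library totals of 12872591 to 17696550. Ocean male muscle had 36 to 73 and 109 to 176, of totals of 17286499 to 21910759. Divided by these totals alone, the testis and muscle libraries overlap for both genes. The size of both ocean differences therefore depends on the TMM scaling. In the river, with 68.9% of genes called, tap1 and tapbp.1 were both called lower in testis than in muscle, at -1.38 and -2.16. With fish as a replicate block they stayed called, at -1.36 (adjusted p = 7.42e-05) and -1.99 (adjusted p = 6.12e-05). They also did without the river muscle library of low muscle markers, at -1.31 (adjusted p = 1.57e-05) and -2.44 (adjusted p = 1.63e-09). The size of these river differences depends on the TMM scaling too. Library size alone moved the river cd74b difference to 0.88 (adjusted p = 0.108). Divided by library totals alone, river testes and river muscles overlap in tap1, which they did not after TMM scaling. tap1 was -0.48 ± 0.24 (SE, adjusted p = 0.0824) from muscle in the ocean and -0.59 ± 0.26 (SE, adjusted p = 0.0499) at spawning, and both changed sign by library size alone, to 1.47 (adjusted p = 3.10e-05) and 0.55 (adjusted p = 0.112). With fish as a replicate block the spawning value was -0.43 (adjusted p = 0.249). It lost its call without any 1 of 28 of the 39 libraries left out in turn, over values of -0.82 to -0.41 and adjusted p of 0.0124 to 0.247. The ocean value passed without the testis of ocean male 1, at -0.63 (adjusted p = 0.0275). DESeq2 gave -0.74 (adjusted p = 0.00692) for the ocean value.

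In female muscle, cd74b and tapbp.1 fell from ocean to spawning while tap1 rose, by amounts that moved with the scaling. cd74b measured 19.4, 4.82, 5.94 and 8.57 CPM in ocean fish 2, 4, 5 and 7. It measured 8.61, 6.76, 8.06 and 5.70 CPM in river fish 1, 7, 8 and 9. In spawning fish 2, 3, 4 and 5 it measured 1.54, 0.839, 1.38 and 1.29 CPM. Every spawning value lay below every ocean and river value, and ocean fish 2 was the highest of all. The log2 fold change from ocean to spawning was -2.96 ± 0.45 (SE, adjusted p = 1.55e-04), a 7.77-fold fall. It was -2.35 (adjusted p = 2.72e-04) without ocean fish 2. Spawning values rest on 11 to 19 expected counts per library.

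tapbp.1, the tapasin gene, measured 15.9, 7.43, 12.6 and 14.3 CPM in the same 4 ocean females. The river females had 14.0, 17.9, 22.3 and 21.7 CPM. The spawning females had 1.22, 1.22, 1.69 and 1.78 CPM. The spawning values were tightly grouped and lay below all others, and the log2 fold change from ocean was -3.11 ± 0.32 (SE, adjusted p = 1.20e-05), an 8.65-fold fall. These spawning values rest on 15 to 22 expected counts per library. tap1, the transporter chain, measured 11.4, 11.3, 15.0 and 11.2 CPM in ocean females. River females had 14.4, 12.5, 13.4 and 15.3 CPM of tap1. Spawning females had 19.8, 27.5, 18.3 and 14.6 CPM, where only spawning fish 5 lay within the ocean range. The rise in tap1 was 0.69 ± 0.23 (SE, adjusted p = 0.022), or 1.62-fold. This rise lost its call without ocean fish 2 at 0.67 (adjusted p = 0.0532), ocean fish 4 at 0.62 (adjusted p = 0.0666), ocean fish 7 at 0.65 (adjusted p = 0.0634) or spawning fish 3 at 0.53 (adjusted p = 0.067). All 3 members were among the 50.5% of the 21695 genes tested that were called in this comparison, 25.8% higher and 24.7% lower.

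Between river and spawning, female muscle showed falls of the same kind, with a log2 fold change of -2.49 ± 0.45 (SE, adjusted p = 5.22e-04) for cd74b and -3.65 ± 0.33 (SE, adjusted p = 5.16e-06) for tapbp.1, in a comparison with 48.3% of genes called. tap1 changed by 0.56 ± 0.23 (SE, adjusted p = 0.0571), which missed the threshold, and passed it without spawning fish 5 at 0.68 (adjusted p = 0.0229). From ocean to river none of the 3 was called, with adjusted p of 0.755 for cd74b, 0.894 for tap1 and 0.548 for tapbp.1, where 0.0415% of genes were. The spawning and river comparisons with ocean share the ocean libraries.

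In male muscle, tapbp.1 and cd74b also fell from ocean to spawning. tapbp.1 measured 27.1, 16.8, 16.9 and 25.1 CPM in ocean males 1, 3, 8 and 9. River males 2, 3, 4, 5 and 6 had 32.8, 22.5, 13.7, 21.5 and 2.72 CPM. Spawning males 7, 8 and 9 had 3.31, 2.40 and 5.15 CPM. All 3 spawning values lay below every ocean value, and river male 6, at 2.72 CPM, was the only river male in the spawning range. The log2 change was -2.57 ± 0.64 (SE, adjusted p = 0.00963), a 5.93-fold change, and -2.56 ± 0.39 (adjusted p = 1.71e-04) without river male 6.

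cd74b measured 5.53, 11.0, 10.5 and 10.7 CPM in the ocean males. The river males had 4.86, 6.34, 6.39, 5.85 and 1.13 CPM. The spawning males had 5.51, 0.740 and 1.78 CPM. Spawning male 7 stood beside ocean male 1 and the river males, while spawning males 8 and 9 and river male 6 were low, so the groups did not separate as in females. The log2 fold change from ocean to spawning was -1.79 ± 0.65 (SE, adjusted p = 0.0429). It kept its call without river male 6, at -1.78 ± 0.52 (adjusted p = 0.0117), and without spawning male 7, at -2.85 (adjusted p = 0.00971). Without any 1 of the other 10 libraries it lost the call, at log2 changes of -1.95 to -1.34 and adjusted p of 0.0514 to 0.14.

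tap1 measured 12.3, 14.5, 15.3 and 10.0 CPM in the ocean males. The river males had 23.5, 19.3, 10.8, 14.0 and 21.3 CPM and the spawning males 15.0, 26.2 and 28.2 CPM. The highest 2 spawning values exceeded all ocean values, and male 7 lay among them. The change of 0.83 ± 0.33 (SE, adjusted p = 0.061) missed the threshold, and passed it without river male 6 at 0.84 ± 0.31 (adjusted p = 0.041), without spawning male 7 at 1.08 (adjusted p = 0.0244) and by DESeq2 at 0.85 (adjusted p = 0.0446). Of the 22042 genes tested, 40.2% were called, 20.2% higher and 20% lower. Against river males, tapbp.1 differed at spawning by -2.29 ± 0.62 (SE, adjusted p = 0.0221), with 23.3% of genes called. Without river male 6 that difference was -2.56 ± 0.39 (adjusted p = 1.81e-04). It lost its call without spawning male 7 at -2.23 (adjusted p = 0.0539), male 8 at -2.07 (adjusted p = 0.0898) or male 9 at -2.64 (adjusted p = 0.0517). From river to spawning cd74b at -0.80 (adjusted p = 0.329) and tap1 at 0.44 (adjusted p = 0.3) were not called. Neither was called without river male 6, at -1.04 ± 0.50 (adjusted p = 0.102) and 0.53 ± 0.31 (adjusted p = 0.175). No member was called from ocean to river, where 0.145% of genes were; the changes were -0.99 ± 0.54 (adjusted p = 0.435) for cd74b, 0.40 ± 0.30 (adjusted p = 0.581) for tap1 and -0.28 ± 0.51 (adjusted p = 0.853) for tapbp.1. Without river male 6 they were -0.74 ± 0.45 (adjusted p = 0.475), 0.31 ± 0.30 (adjusted p = 0.672) and 0.0015 ± 0.32 (adjusted p = 1.00).

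The muscle values moved with the scaling: dividing by library size alone raised the median log2 change of all genes by 0.77 in females and 1.14 in males. On that scale the directions of the 3 members stayed the same. In males the falls of cd74b at -0.56 (adjusted p = 0.484) and tapbp.1 at -1.41 (adjusted p = 0.0577) were no longer called, and the rise of tap1 was, at 1.91 (adjusted p = 0.00244).

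The ratio of tap1 to tapbp.1 counts within a library does not depend on scaling, and it set spawning muscle apart. In females the ratio was 0.720, 1.52, 1.19 and 0.780 in the 4 ocean muscles. It was 1.03, 0.700, 0.599 and 0.704 in the river muscles. At spawning it was 16.3, 22.3, 10.8 and 8.22, every value above every ocean and river one. These spawning ratios divide by only 15 to 22 expected counts of tapbp.1 per library. Male muscle gave 0.455, 0.859, 0.907 and 0.398 in the ocean. River males gave 0.716, 0.857, 0.790, 0.653 and 7.83, where the last value is river male 6. Spawning males gave 4.52, 10.9 and 5.53. Over the other 68 libraries of all tissues, leaving out spawning muscle and river male 6 muscle, the ratio stayed between 0.398 and 3.18. The ratio shows unequal change of the 2 genes and not which of them moved.

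**Figure D2:**
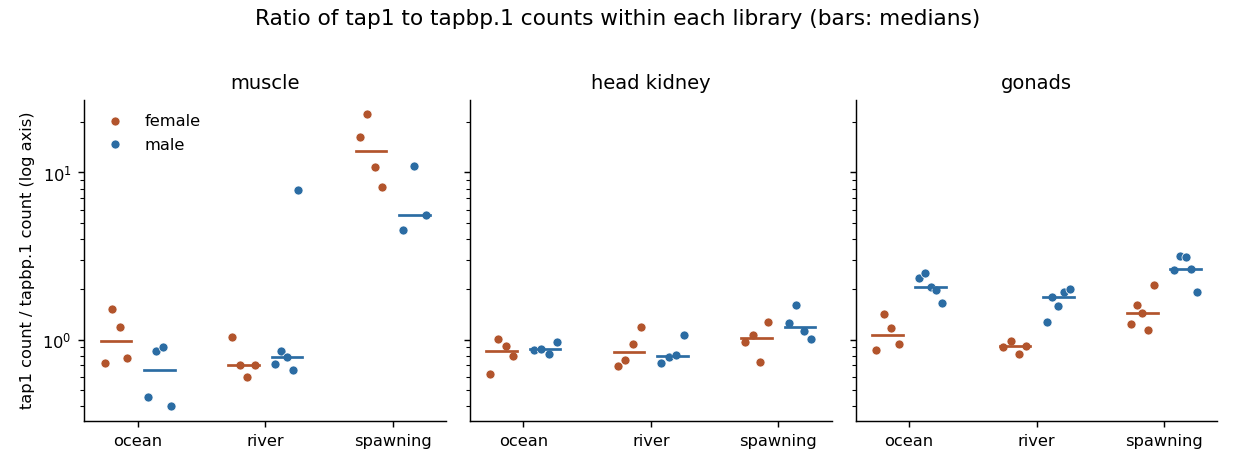
Ratio of tap1 to tapbp.1 expected counts within each library (log axis) by stage, in muscle, head kidney and gonads, females in orange and males in blue, with bars at group medians. The 7 spawning muscle libraries lie between 4.52 and 22.3, and the single high river muscle is male 6 at 7.83.

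Immune cell markers in muscle moved in several directions between ocean and spawning. Of all genes, 25.8% were called higher and 24.7% lower in females, and 20.2% and 20% in males. The pan-leukocyte gene ptprc changed by -1.05 ± 0.47 (adjusted p = 0.0804) in females and 0.88 ± 0.57 (adjusted p = 0.235) in males, neither called. Of the 8 macrophage and dendritic markers, 5 were tested in each sex: in females cd68 rose and c1qc and flt3 fell, in males cd68 and c1qc rose and flt3 fell. flt3, a receptor of dendritic cell precursors, fell by 3.72 in females and 4.36 in males on the log2 scale. Their summed level was 59.9 to 105 CPM in ocean and 90.3 to 124 CPM in spawning females, and 60.3 to 73.4 and 115 to 235 CPM in males, with batf3 at 0 in all ocean muscle libraries. B cell markers fell in both of the 2 tested in females (btk and swap70b) and in 1 of 2 in males (swap70b), with sums of 9.56 to 11.8 CPM in ocean and 3.07 to 5.75 CPM in spawning females and 7.78 to 11.0 and 4.53 to 9.29 CPM in males. The skeletal muscle markers themselves summed to 14256 to 21038 CPM in ocean and 689.6 to 5431 CPM in spawning females. The part of these shifts in the change of the members was not tested. In whole tissue, fewer cells of a type and less RNA per cell cannot be told apart.

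In the head kidney, all 3 members had lower means at spawning than in the ocean in both sexes, and different ones passed the test in each sex. cd74b in females measured 281, 129, 135 and 215 CPM in ocean fish 2, 4, 5 and 7. River fish 1, 7, 8 and 9 had 483, 426, 210.0 and 175 CPM. Spawning fish 1, 2, 4 and 5 had 59.1, 71.9, 53.9 and 61.5 CPM. The spawning females were close together and all below the lowest ocean female. Their change was -1.75 ± 0.35 (SE, adjusted p = 0.0129), a 3.37-fold fall, where 7.92% of the 27374 genes tested were called, 4.77% higher and 3.15% lower.

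In males cd74b measured 206, 109, 387 and 201 CPM in ocean fish 1, 6, 8 and 9. River fish 2, 3, 5 and 6 had 286, 453, 357 and 168 CPM. Spawning fish 6, 7, 9 and 10 had 94.8, 112, 194 and 57.3 CPM. Ocean and spawning males overlapped, and the change of -1.05 ± 0.44 (SE, adjusted p = 0.185) was not called.

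tap1 in male head kidney measured 46.9, 65.0, 58.1 and 65.6 CPM in the ocean fish. It was 71.7, 80.8, 68.9 and 65.9 CPM in river fish and 31.2, 31.7, 43.1 and 34.9 CPM in spawning fish. Every spawning male lay below every ocean male. The log2 change was -0.81 ± 0.14 (SE, adjusted p = 0.00729), or 1.75-fold, among 6.76% of the 26897 genes tested that were called, 4.17% higher and 2.6% lower. Female head kidney had 53.4, 41.5, 52.2 and 54.8 CPM of tap1 in the ocean and 30.3, 43.4, 42.7 and 23.7 CPM at spawning. These ranges overlapped, and the change of -0.66 ± 0.21 (SE, adjusted p = 0.0797) was not called; it was -0.83 (adjusted p = 0.0458) by library size alone and -0.61 (adjusted p = 0.0438) by DESeq2.

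tapbp.1 in male head kidney measured 54.4, 73.6, 71.0 and 67.8 CPM in the ocean. It was 99.1, 103, 84.9 and 62.1 CPM in the river and 24.6, 19.9, 38.6 and 34.5 CPM at spawning. Again all spawning males lay below all ocean males, with a change of -1.26 ± 0.21 (SE, adjusted p = 0.00563). In females tapbp.1 ran over 41.3 to 86.5 CPM in the ocean and 18.6 to 58.4 CPM at spawning, which overlapped, and its change of -0.89 ± 0.36 (SE, adjusted p = 0.155) was not called. With the mean log2(CPM + 1) of the renal tubule markers of each library as a covariate, the head kidney calls from ocean to spawning stood. They were cd74b in females at -1.55 (adjusted p = 0.0222), tap1 in males at -0.83 (adjusted p = 0.0076) and tapbp.1 in males at -1.28 (adjusted p = 0.006).

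River head kidney had the highest means, and each member stood lower at spawning than in the river. In females cd74b changed by -2.40 ± 0.36 (SE, adjusted p = 0.00375) and tap1 by -0.87 ± 0.21 (SE, adjusted p = 0.0281) from river to spawning, while tapbp.1 at -1.02 ± 0.36 (adjusted p = 0.112) was not called, in a comparison with 8.46% of genes called. The tap1 call was lost without river fish 7 at -0.74 (adjusted p = 0.0827) or spawning fish 1 at -0.80 (adjusted p = 0.0764). In males tap1 changed by -1.06 ± 0.14 (SE, adjusted p = 0.00213) and tapbp.1 by -1.61 ± 0.21 (SE, adjusted p = 0.00187), while cd74b at -1.49 ± 0.45 (adjusted p = 0.0604) was not called except without ocean fish 8 at -1.48 (adjusted p = 0.0401) or spawning fish 9 at -1.84 (adjusted p = 0.0437), with 9.22% of genes called. From ocean to river no member was called in either sex, where 0.117% of genes were in females and 0% in males by edgeR, with 2669 at an unadjusted p under 0.05 and 170 by DESeq2. The changes to spawning from the river and from the ocean share the spawning libraries.

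Of the 5 T cell markers tested in head kidney, 4 (cd8a, itk, lat and lck) were called lower at spawning than in the ocean in each sex. The fifth, cd247, was not called. By edgeR all 5 had an unadjusted p under 0.05 in each sex, in a test of either direction. The sum of the 5 did not fall with the 4, so this does not mean a fall of all 5. It was 76.5 to 111 CPM in ocean and 85.3 to 137 CPM in spawning females, and 66.9 to 141 and 110.1 to 133 CPM in males. Of all genes, 4.77% were called higher and 3.15% lower in females, and 4.17% and 2.6% in males. Of 4 B cell markers, only cd79b in females fell, by 0.78, and their sum was 161 to 179.6 and 157 to 212 CPM in ocean and spawning females and 177 to 204 and 180.0 to 230.4 CPM in males. flt3 fell by 1.59 in females and 1.86 in males. csf3r, a receptor of neutrophils and macrophages, rose by 1.34 and 1.02, and ptprc was not called at 0.52 ± 0.28 (adjusted p = 0.295) and 0.47 ± 0.19 (adjusted p = 0.176). The macrophage and dendritic markers summed to 1227 to 1509.7 CPM in ocean and 2091 to 3535 CPM in spawning females and 1144 to 1774 and 2202 to 2995 CPM in males. flt3 and csf3r were the 2 called of the 8 tested in females, and marco, called higher, joined them among the 7 tested in males. The part of these markers in the fall of the members was not tested.

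In the ovary all 3 members fell between ocean and spawning, and no spawning value reached an ocean one. cd74b measured 74.2, 66.9, 56.9 and 93.2 CPM in ocean females 2, 4, 5 and 7. River females 1, 7, 8 and 9 had 279.6, 147, 140.1 and 121 CPM. Spawning females 1 to 5 had 24.8, 21.2, 17.9, 26.8 and 18.4 CPM. The river ovaries were all above the ocean ones, river fish 1 by far, and the spawning ovaries were all below. From ocean to spawning the change was -1.76 ± 0.24 (SE, adjusted p = 1.35e-04), a 3.38-fold fall, where 36.3% of the 28339 genes tested were called, 16.3% of all genes higher and 20% lower.

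tap1 in ovary measured 31.4, 41.3, 36.3 and 45.3 CPM in the ocean. It was 51.7, 43.3, 40.9 and 47.9 CPM in the river and 18.6, 20.3, 21.9, 24.2 and 18.1 CPM at spawning. The spawning ovaries lay clear of the other 2 stages, and the change from ocean was -0.92 ± 0.13 (SE, adjusted p = 1.38e-04). tapbp.1 measured 36.2, 28.8, 31.0 and 47.9 CPM in the ocean. It was 57.1, 44.2, 49.9 and 52.3 CPM in the river and 14.9, 12.5, 15.1, 21.4 and 8.55 CPM at spawning, a change from ocean of -1.33 ± 0.22 (SE, adjusted p = 5.95e-04). From river to spawning the log2 changes were -3.00 ± 0.25 (adjusted p = 4.78e-06) for cd74b, -1.18 ± 0.13 (adjusted p = 2.19e-05) for tap1 and -1.83 ± 0.22 (adjusted p = 5.71e-05) for tapbp.1, with 37.9% of genes called.

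From ocean to river no gene at all was called in ovary by edgeR (0% of 28339), although 2338 had an unadjusted p under 0.05 and DESeq2 called 147. The change of cd74b there was 1.24 ± 0.25 (SE, adjusted p = 0.279), with the river and ocean ovaries not overlapping. Among markers, ptprc was not called from ocean to spawning at 0.38 ± 0.29 (adjusted p = 0.339), flt3 fell by 3.58, and the T cell markers cd8a, itk and lck fell, 3 of 5 tested. Of all genes, 16.3% were called higher and 20% lower. The macrophage and dendritic markers summed to 401 to 742 CPM in ocean and 473 to 922 CPM in spawning ovaries, with csf3r and marco called higher. The ovary markers summed to 15.6 to 54.5 and 170.0 to 544 CPM. The part of the changing makeup of the ovary in these falls was not tested.

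In the testis no member was called lower at spawning, and tap1 rose. tap1 measured 13.3, 8.49, 7.51, 11.1 and 6.79 CPM in ocean males 1, 3, 6, 8 and 9. River males 2 to 6 had 8.45, 4.52, 7.57, 5.64 and 8.05 CPM. Spawning males 6 to 10 had 14.7, 22.5, 16.9, 13.2 and 10.1 CPM. Spawning testes were the highest as a group and overlapped the ocean range, while river testes were the lowest. The change from ocean to spawning was 0.93 ± 0.26 (SE, adjusted p = 0.0033), or 1.90-fold, in a comparison where 84% of the 28149 genes tested were called. From river to spawning it was 1.20 ± 0.26 (SE, adjusted p = 4.78e-04), with 80.6% called.

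cd74b was low in all testes. It measured 1.60, 2.55, 1.54, 1.49 and 1.42 CPM in the ocean. River testes had 7.08, 2.08, 5.34, 2.48 and 4.09 CPM and spawning testes 3.35, 5.06, 0.485, 3.11 and 1.77 CPM. Spawning male 8 was the lowest of all testes and the other spawning values overlapped both other stages. The change from ocean to spawning was 0.90 ± 0.49 (SE, adjusted p = 0.0956), and 1.17 (adjusted p = 0.012) without spawning male 8. From ocean to river cd74b rose by 1.48 ± 0.49 (SE, adjusted p = 0.0267), where 39.2% of genes were called. That rise lost its call without ocean male 1, 6, 8 or 9 or river male 2, 4 or 6, at log2 changes of 1.04 to 1.45 and adjusted p of 0.0506 to 0.113.

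tapbp.1 ran over 3.40 to 5.69 CPM in ocean, 2.51 to 6.64 CPM in river and 4.98 to 7.10 CPM in spawning testes. These ranges overlapped and the change from ocean to spawning, 0.55 ± 0.27 (SE, adjusted p = 0.069), was not called, but passed without river male 2 at 0.52 (adjusted p = 0.0486). Leukocyte and macrophage genes rose in the same testes: ptprc by 1.75 ± 0.29 (adjusted p = 3.88e-05), cd68 by 4.67, c1qc by 3.85, csf3r by 5.09 and mpeg1.1, a perforin-like gene of macrophages, by 4.23. The 8 macrophage and dendritic markers summed to 13.6 to 16.8 CPM in ocean and 193 to 337 CPM in spawning testes, while flt3 fell by 3.50. All 8 testis markers were called: ddx4, piwil1, sycp3, odf3b and spag6 lower and amh, dmrt1 and insl3 higher, where 43.2% of all genes were called lower and 40.7% higher. The part of these cells in the levels of the members was not tested.

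**Figure D3:**
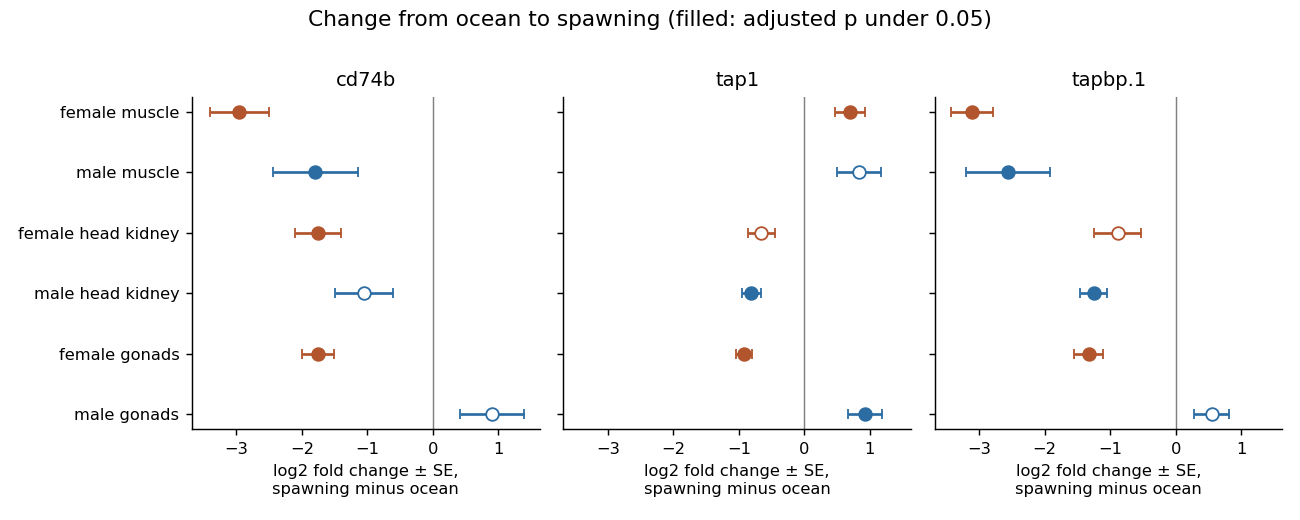
Log2 fold change from ocean to spawning with its standard error for cd74b, tap1 and tapbp.1 in each tissue and sex, from edgeR; filled points have an adjusted p under 0.05. tap1 lies right of 0 in muscle and testis and left of it in head kidney and ovary, and cd74b and tapbp.1 lie left of 0 everywhere but in testis.

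The change from ocean to spawning differed between tissues for each member when the difference itself was tested. For tap1 in females, the change in head kidney minus that in muscle was -1.21 ± 0.26 (SE, adjusted p = 6.60e-04), with 29.3% of genes called. The change in ovary minus that in muscle was -1.53 ± 0.25 (SE, adjusted p = 2.81e-05), with 28.5% called. In males the head kidney minus muscle difference for tap1 was -1.56 ± 0.37 (SE, adjusted p = 0.00326), with 19.5% called, and -1.39 (adjusted p = 0.0518) with fish as a replicate block. Muscle tap1 thus moved up relative to head kidney in both sexes, by library size alone as well, at -2.33 (adjusted p = 8.09e-07) in females and -2.86 (adjusted p = 8.21e-06) in males. tap1 in testis minus head kidney differed by 1.45 ± 0.34 (SE, adjusted p = 5.23e-04), with 56.4% called.

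tapbp.1 fell more in female muscle than in female head kidney or ovary. In females its change in head kidney minus muscle was 2.36 ± 0.45 (SE, adjusted p = 1.66e-04) and in ovary minus muscle 1.87 ± 0.44 (SE, adjusted p = 0.00151). In males the head kidney minus muscle difference was 1.39 ± 0.57 (SE, adjusted p = 0.086), and passed without the muscle of river male 6 at 1.39 (adjusted p = 0.0139). The testis minus muscle difference was 2.91 ± 0.57 (SE, adjusted p = 4.99e-05), with 53.2% of genes called, and testis minus head kidney was 1.52 ± 0.51 (SE, adjusted p = 0.0121). By library size alone, fits of single tissues gave tapbp.1 changes of -2.34 in muscle, -1.05 in head kidney and -1.15 in ovary of females. In males they were -1.41 in muscle, -1.41 in head kidney and 0.62 in testis. The estimates of male muscle and male head kidney were thus alike on that scale. By edgeR the muscle value had an SE of 0.60 (adjusted p = 0.0577) and the head kidney value an SE of 0.20 (adjusted p = 0.00263). They come from separate fits, which do not test their difference.

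For cd74b, 2 of the 3 called tissue differences were lost without single libraries. The change in female head kidney minus muscle was 1.35 ± 0.52 (SE, adjusted p = 0.0475), and 0.76 (adjusted p = 0.246) without the muscle of ocean female 2. It lost its call without any 1 of 25 of the 37 libraries left out in turn, over values of 0.76 to 1.59 and adjusted p of 0.019 to 0.246. In males testis minus muscle was 2.48 ± 0.80 (SE, adjusted p = 0.00882), and 3.57 (adjusted p = 8.64e-04) without the muscle of spawning male 7. It kept its call without any 1 of the 39 libraries. Testis minus head kidney was 1.66 ± 0.72 (SE, adjusted p = 0.0494). It lost its call without any 1 of 25 of the 39 libraries left out in turn, over values of 1.26 to 2.04 and adjusted p of 0.0157 to 0.141. By library size alone the female head kidney minus muscle and the testis minus muscle differences were not called, at 0.22 (adjusted p = 0.794) and 1.55 (adjusted p = 0.0997). In ovary minus head kidney, where 9.56% of genes were called, no member differed at the threshold. With fish as a replicate block the cd74b difference between ovary and muscle, 1.28 (adjusted p = 0.0571) without it, passed at 1.08 (adjusted p = 0.0318). It also passed without the muscle of ocean female 4, the muscle of ocean female 5, the ovary of ocean female 7, the ovary of river female 1 or the head kidney of river female 9, at values of 1.28 to 1.52 and adjusted p of 0.0227 to 0.0469.

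No difference between the sexes in the change from ocean to spawning was called for any member. The intervals are those of edgeR's quasi-likelihood test. In muscle the female change minus the male change was -1.18 for cd74b (95% interval -2.77 to 0.42, adjusted p = 0.569). For tap1 it was -0.14 (-0.95 to 0.67, adjusted p = 0.923) and for tapbp.1 -0.55 (-1.94 to 0.84, adjusted p = 0.796), in a test with 0.0506% of genes called. In head kidney, where 0% of genes were called (0 of 28707 by edgeR, 1314 at an unadjusted p under 0.05 and 96 by DESeq2), it was -0.63 for cd74b (-1.85 to 0.59), 0.22 for tap1 (-0.31 to 0.76) and 0.43 for tapbp.1 (-0.47 to 1.33). These intervals leave room for sex differences of over 2-fold in cd74b and tapbp.1.

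Of the other antigen presentation genes on the list, 11 were matched by symbol and 10 of these tested, and in the change from ocean to spawning they moved differently by tissue. In ovary 0 rose and 8 fell of the 10 tested, with a median log2 change of -1.04 against -0.02 over the 28339 genes tested, where 16.3% of all genes were called higher and 20% lower. Examples are erap2, which trims peptides for class I, at -2.66 ± 0.42 (adjusted p = 4.11e-04), tapbpl, a tapasin-like peptide editor, at -1.42 ± 0.19 (adjusted p = 1.28e-04) and tap2t, a teleost form of the other TAP chain, at -0.95 ± 0.19 (adjusted p = 0.00168). cd8a, the class I co-receptor of cytotoxic T cells, is on this list and also among the T cell markers. It changed by -3.85 ± 0.88 (adjusted p = 0.00445). rfxank, a subunit of the factor that class II genes need for transcription, changed by -1.34 ± 0.21 (adjusted p = 3.83e-04).

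In testis 7 rose and 1 fell of the 8 tested, with a median of 2.27 against -0.12 over the 28149 genes tested, against a background of 40.7% of genes called higher and 43.2% lower. tapbpl rose by 2.55 ± 0.46 (adjusted p = 9.32e-05), nlrc5, the class I transactivator, by 2.44 ± 0.37 (adjusted p = 1.31e-05), canx, the chaperone calnexin, by 2.43 ± 0.25 (adjusted p = 2.29e-07) and tap2t by 1.65 ± 0.41 (adjusted p = 0.00147). The protease gene sppl2 changed by -0.91 ± 0.15 (adjusted p = 4.55e-05). Of 4 interferon response genes tested, all 4 (irf2, irf9, rsad2 and stat2) rose in testis, and edgeR called none of those tested from ocean to spawning in the other 5 combinations of tissue and sex, where 0 to 2 had an unadjusted p under 0.05.

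In head kidney 0 rose and 1 of 10 fell in females (cd8a, at -4.36 ± 0.61 (adjusted p = 0.00307)), and 0 rose and 2 of 10 fell in males (cd8a, at -3.15 ± 0.80 (adjusted p = 0.0401), and tapbpl, at -1.11 ± 0.23 (adjusted p = 0.0157)). The cd8a falls are those already given among the T cell markers of head kidney, and cd8a is a gene of T cells. Of all genes 4.77% were called higher and 3.15% lower in females and 4.17% and 2.6% in males. The medians were -0.40 against -0.06 over the 27374 genes tested in females and -0.70 against -0.10 over the 26897 genes tested in males. tap2t changed by -0.27 ± 0.24 (adjusted p = 0.531) in females and -0.50 ± 0.19 (adjusted p = 0.132) in males, both not called. In muscle 1 of 7 rose and 0 fell in females, and 0 of 7 moved past the threshold in males by edgeR (2 had an unadjusted p under 0.05), with medians of 0.00 against -0.01 over the 21695 genes tested and 0.30 against 0.03 over the 22042 genes tested. Of all genes 25.8% were called higher and 24.7% lower in female muscle and 20.2% and 20% in male muscle. The gene that rose was tapbpl, at 2.75 ± 0.57 (adjusted p = 0.00131). It changed by 1.90 ± 0.81 (adjusted p = 0.0752) in males. In the muscle of both sexes the tapasin gene and its tapasin-like relative therefore had estimates of opposite sign, while tap2t changed by -0.90 ± 0.72 (adjusted p = 0.314) and -1.51 ± 0.70 (adjusted p = 0.101), not called.

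**Figure D4:**
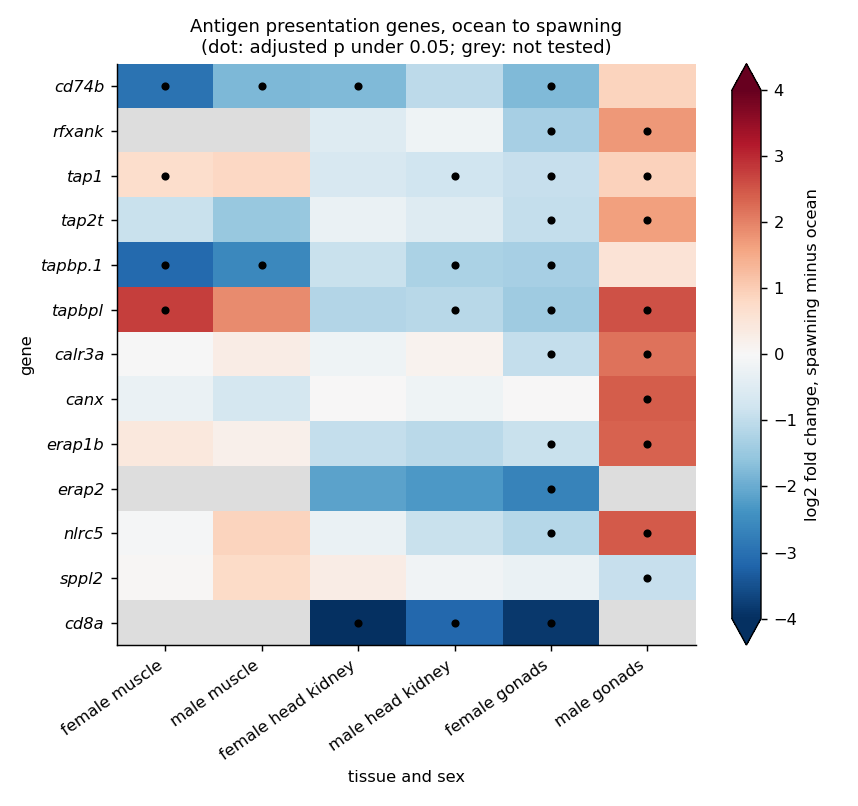
Log2 fold change from ocean to spawning (colour, capped at 4 in size) of the 3 members and the 10 other antigen presentation genes tested in at least 1 tissue and sex; black dots mark an adjusted p under 0.05 and grey cells were not tested. The ovary column is mostly blue and the testis column mostly red, and in muscle tapbp.1 and tapbpl have opposite colours.

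Over the 76 libraries, log2(CPM + 1) of cd74b and tapbp.1 went together with Pearson's r of 0.913, of cd74b and tap1 with 0.851 and of tap1 and tapbp.1 with 0.788. The libraries share tissue, stage and often the fish, and after the mean of each of the 18 groups was taken away the values were 0.493, 0.0466 and 0.342. Among 6416 genes with a symbol and a mean of at least 1 CPM, those most like cd74b over the 76 libraries, with r in parentheses, were rnaset2l (0.948), gpr174 (0.943), napsa (0.942), rfxank (0.935) and cd40 (0.934). Those most like tap1 were tapbpl (0.931), rnaset2l (0.886), nmi (0.882), si:ch211-244b2.4 (0.877) and eml3 (0.876). Those most like tapbp.1 were cd74b (0.913), snn (0.899), arl9 (0.889), hmgxb4a (0.885) and hmgn7 (0.883).

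Within groups, after the group means were taken away, other genes came first. For cd74b they were gpr137ba (0.564), mat2al (0.547), c1qc (0.542), ncf4 (0.522) and sap30l (0.522). For tap1 they were rbm19 (0.563), aste1b (0.559), hexa (0.526), ctsba (0.525) and tmem109 (0.516). For tapbp.1 they were parp9 (0.703), spsb3b (0.698), prkn (0.633), asb5a (0.620) and tmem256 (0.608). These lists depended on the muscle library of river male 6. Without it, over 75 libraries, 0 of the 5 tapbp.1 genes, 2 of the 5 cd74b genes and 4 of the 5 tap1 genes remained. The tapbp.1 list then held tap1 (0.561), batf2 (0.548) and 3 genes with clone names (0.572 to 0.608). Between members the values within groups became 0.379 for cd74b and tapbp.1, 0.105 for cd74b and tap1 and 0.561 for tap1 and tapbp.1. Before the group means were taken away they stayed at 0.910, 0.859 and 0.797, and 5, 4 and 5 of the 5 genes listed for cd74b, tap1 and tapbp.1 remained. The choice to leave this library out was made after seeing the data. These are descriptions over libraries that share groups and fish.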

How the data were processed

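Transcripts were measured by sequencing of polyadenylated RNA in 76 libraries of 18 groups (tissue, sex and stage). The deposited values are expected counts per gene, which the authors estimated: 36.4% of the values were not whole. Per the submitters' processing notes the tools were Salmon 1.8.0, R 4.3.3 and Trim Galore 0.6.4, with no role given. The genome build and annotation are not given in the sources used here.

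Expected counts were rounded to whole numbers, filtered with filterByExpr, scaled with TMM and tested with edgeR 4.0.16 (quasi-likelihood, R 4.3.3, Benjamini-Hochberg over all genes tested). Standard errors are the absolute log2 change divided by the square root of F. Each tissue of each sex was fitted over its 3 stages. Sex-by-stage differences came from a fit of both sexes per tissue, and tissue differences from a fit of 9 groups per sex. The procedure was tested on simulated counts. Of the 40756 genes, 40754 matched the RefSeq gene table. Levels are CPM with TMM factors over all libraries.

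The members, lists and tests were chosen with earlier results of these data known. Named genes were the members, the 5 genes most like each member, called genes of the pathway list (up to 3 a direction in each tissue and sex) and relatives of the members. Of 41 pathway symbols sought, 28 had no match and 14 genes were found, so genes named only by number, among them further copies that salmonids carry, are not analysed here, and whether they share reads with the members was not tested. Alternatives were RLE scaling (DESeq2's size factors), library size only, no filter, DESeq2 1.42.0, a fit of the 2 compared stages, a replicate block, a renal tubule score as covariate and leaving out each library. No pair of libraries within a group was a copy, with a chi-square per gene of at least 13.8 over 125 pairs.

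Same-numbered libraries of different tissues are taken as 1 fish. The main tissue fits had no block, so their p-values do not account for shared fish. The fish was the replicate block only in the alternative setting. Deviations of same-numbered libraries from group means had correlations over 0.1 in 27 of 68 pairs (range -0.30 to 0.32, median 0.066).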

Additional observations from a re-analysis of the deposited data

Results flagged for a closer look

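Of 51 sets of a member and a group of 4 or 5 libraries, 5 had a single library set apart from the rest by Dixon's criterion, where chance flags about 1 in 20 groups. cd74b stood at 279.6 CPM in the ovary of river female 1, against 121 to 147 CPM in the other 3 river ovaries. cd74b was 2.55 CPM in the testis of ocean male 3 and 1.42 to 1.60 CPM in the other 4 ocean testes. In ocean male muscle, cd74b was 5.53 CPM in male 1 and 10.5 to 11.0 CPM in the other 3 fish. tap1 was 84.0 CPM in the head kidney of river female 7 and 55.6 to 57.4 CPM in the other 3. tap1 in ocean female muscle was 15.0 CPM in female 5 and 11.2 to 11.4 CPM in the other 3.

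The change from ocean to spawning differed between tissues in 11 tests of the difference itself, each in a fit of 1 sex with an adjusted p by edgeR. For cd74b the change in head kidney minus that in muscle was 1.35 in females, and in males the change in testis was 1.66 minus head kidney and 2.48 minus muscle. For tap1 the difference from muscle was -1.53 in ovary and -1.21 in head kidney of females and -1.56 in head kidney of males, and testis minus head kidney was 1.45. For tapbp.1 the difference from muscle was 1.87 in ovary and 2.36 in head kidney of females and 2.91 in testis, and testis minus head kidney was 1.52.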

How the results depend on the processing

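None of the 18 member changes from ocean to spawning reversed under another setting or without any 1 library: of 114 values under other settings 101 kept direction and side of the threshold, 8 lost the call and 5 gained it, and of 228 with 1 library left out 210 did, 14 lost it and 4 gained it. By library size alone, male muscle gave -0.56 (adjusted p = 0.484) for cd74b, 1.91 (adjusted p = 0.00244) for tap1 and -1.41 (adjusted p = 0.0577) for tapbp.1, and female head kidney -0.83 (adjusted p = 0.0458) for tap1. DESeq2 called tap1 in male muscle at 0.85 and in female head kidney at -0.61. Without the filter cd74b in male muscle was -1.74 (adjusted p = 0.0554). A fit of the 2 compared stages gave 0.63 (adjusted p = 0.0668) for tap1 in female muscle and 0.51 (adjusted p = 0.04) for tapbp.1 in testis. Fish of different stages share only a number, so a block on it joins unrelated fish and leaves little with which to estimate the spread. With that number as a replicate block the calls were lost for tap1 in female muscle at 0.48 (adjusted p = 0.389) and cd74b in female head kidney at -1.67 (adjusted p = 0.0631). They were also lost for tap1 and tapbp.1 in male head kidney at -0.89 (adjusted p = 0.22) and -1.25 (adjusted p = 0.196). Without a change of call this block moved cd74b to -3.11 in male muscle, -0.18 in male head kidney and 0.37 in testis. With the fish as a replicate block in the tissue fits, no member's call changed other than those given in the report. Of 762 values of all member comparisons, 22 reversed, where the report's own value was called in 1 (tap1 in testis minus muscle at spawning). By library size alone, they were cd74b in female muscle (ocean to river) at 0.13, tapbp.1 in male muscle (ocean to river) at 0.60, tapbp.1 in female head kidney (ocean to river) at -0.028, tapbp.1 in testis (ocean to river) at -0.19, sex difference of tap1 in head kidney (ocean to river) at -0.099, tap1 female ovary minus muscle at spawning at 1.16, cd74b female ovary minus head kidney (ocean to spawning) at 0.35, tap1 female ovary minus head kidney (ocean to spawning) at 0.089, tap1 male testis minus muscle in the ocean at 1.47, cd74b male testis minus muscle in the river at 0.88, tap1 male testis minus muscle at spawning at 0.55 and cd74b male head kidney minus muscle (ocean to spawning) at -0.59. Without the filter, it was tapbp.1 in testis (ocean to river) at -0.13. In the fit of the 2 compared stages, it was tapbp.1 in testis (ocean to river) at -0.055. By RLE scaling, they were cd74b male testis minus muscle at spawning at -0.027 and tap1 male testis minus muscle (ocean to spawning) at 0.058. By DESeq2, they were cd74b male testis minus muscle at spawning at -0.020 and tap1 male testis minus muscle (ocean to spawning) at 0.065. With fish number as a replicate block, they were tapbp.1 in male muscle (ocean to river) at 0.36, tapbp.1 in testis (ocean to river) at -0.016 and sex difference of tapbp.1 in head kidney (ocean to river) at 0.24. With the fish as a replicate block, it was tap1 male testis minus muscle (ocean to spawning) at 0.038. Leaving out 1 library turned the direction, or changed a call from ocean to spawning, in these, with their ranges. They were sex difference of cd74b in head kidney (ocean to river) -0.087 to 0.52, cd74b in female muscle (ocean to river) -0.72 to 0.14, cd74b female ovary minus head kidney (ocean to spawning) -0.30 to 0.076, cd74b in testis (ocean to spawning) 0.54 to 1.17 and cd74b in male muscle (ocean to spawning) -2.85 to -1.34. Further ranges were cd74b male testis minus muscle at spawning -0.41 to 1.12, sex difference of tap1 in head kidney (ocean to river) -0.12 to 0.099, sex difference of tap1 in muscle (ocean to spawning) -0.38 to 0.043, tap1 in female muscle (ocean to spawning) 0.53 to 0.82 and tap1 female ovary minus muscle at spawning -0.29 to 0.014. Others were tap1 in male muscle (ocean to spawning) 0.67 to 1.08, tap1 male testis minus muscle (ocean to spawning) -0.35 to 0.059, sex difference of tapbp.1 in head kidney (ocean to river) -0.38 to 0.030, tapbp.1 in female head kidney (ocean to river) -0.077 to 0.35 and tapbp.1 in testis (ocean to river) -0.32 to 0.19. The rest were tapbp.1 in testis (ocean to spawning) 0.44 to 0.63 and tapbp.1 in male muscle (ocean to river) -0.59 to 0.0015. Counts of called genes moved by over 1.5 times as follows. Between ocean and river, female muscle had 9 calls, against 512 by library size alone, 14 without the filter, 332 by DESeq2, 107 in the fit of 2 stages and 0 with the block, and male muscle 32, against 6324, 693 by DESeq2, 15 in the fit of 2 stages and 0 with the block. Female head kidney had 32, against 4 without the filter, 1536 by DESeq2, 10 with the tubule score and 0 with the block, and testis 11037, against 2349 with the block. From ocean to spawning, DESeq2 called 4339 and 3671 genes in female and male head kidney against 2167 and 1819, the tubule score gave 3443 in females, and the block left 59 and 0, with 5422 of 10950 in female muscle and 5528 of 10286 in ovary. From river to spawning, male muscle had 5127, against 3398 by library size alone, 3061 in the fit of 2 stages and 246 with the block. Female head kidney had 2315 there, against 3943 by DESeq2, 907 in the fit of 2 stages, 4170 with the tubule score and 0 with the block, and male head kidney 2479, against 4743 by DESeq2 and 0 with the block. The block left 0 of 10487 in female muscle and 1611 of 10734 in ovary. The sex difference in muscle had 12, against 5 by library size alone, 259 by DESeq2 and 0 with the block. The causes were not tested. Low cd74b counts limit spawning muscle and testis, and low tapbp.1 counts limit spawning female muscle.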
